A study of Glycine max with 30 samples.

Results

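RNA of whole developing seeds of the soybean line 3MWT was compared between the largest and the smallest seeds that were sampled. The comparison takes the 3 libraries of stage 5, from seeds of 10 to 12 mm, and the 3 libraries of stage 1, from seeds of 2 to 4 mm, which are 6 of the 30 libraries of the series. All 54175 annotated gene models were read from these libraries, after the 5 summary lines of the counting program were left out. It addresses which transcripts differ between the start and the end of the sampled seed filling period in seeds with normal phytic acid. 3MWT is a single recombinant inbred line, so that the results hold for this genotype, and carries the non-mutant alleles MIPS1, MRP-L and MRP-N in homozygous form. The remaining libraries are stages 2, 3 and 4 of 3MWT, and the same 5 stages of 3mlpa, a line of the same cross that is homozygous for mips1, mrp-l and mrp-n. Plants of both lines shared a growth chamber, and no treatment was given. Each replicate was a pool of seeds from several plants, with more seeds at stage 1 than at stage 5, and the whole seed was used, so that cotyledon, endosperm and seed coat were ground together.

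A soybean embryo finishes most of its cell division early and then fills its cotyledons with storage protein and oil, which feed the seedling after germination. Cells of the filling cotyledon enlarge rather than divide, take up sugars and amino acids from the seed coat, and stay green for much of the filling period, so that chloroplast proteins are made in them alongside the reserves. Raffinose family oligosaccharides and phytic acid, the seed store of phosphorus, accumulate towards maturity.

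The 6 libraries held from 14150244 to 22145578 gene counts, and from 40821 to 44022 genes with at least 1 count. The 10 genes of most counts in a library took 4.04 % ± 1.68 (SD, n = 3) of gene counts at stage 1 and 24.4 % ± 0.942 at stage 5, and the stages did not overlap. The exact two-sided permutation test of 3 libraries against 3 gave p = 0.1, which is the smallest value it can give. Replicate 2 of stage 1 stood apart from the other stage 1 libraries: it had the fewest gene counts, and its 10 leading genes took 2.16 % against 4.56 and 5.41 %. Its log2 levels correlated with the other stage 1 libraries at a Pearson r of 0.951 and 0.964 across genes, against 0.985 between replicates 1 and 3. The main results are therefore given also without it. All libraries of a stage were sequenced on a lane of their own, so stage and lane cannot be told apart.

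Levels are given as scaled CPM, that is, counts relative to the library size after scaling by TMM, a method that assumes that most genes do not change. The TMM factors were from 1.21 to 1.40 at stage 1 and from 0.700 to 0.706 at stage 5, so scaled values at stage 5 exceed the plain share of counts. Changes are log2 fold changes of stage 5 over stage 1 with their standard error. A gene was called at an adjusted p at or below 0.01 with the quasi-likelihood test of edgeR and the Benjamini-Hochberg method.

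Of 41141 genes tested, 6411 (15.6 %) were called higher at stage 5 and 6632 (16.1 %) were called lower. Changes of at least 2-fold were called for 4344 genes in the upward and 5235 in the downward direction, and changes of at least 10-fold for 1054 and 1209. The median log2 fold change over all genes was -0.07, and the smallest change that was called measured 0.44. When libraries were scaled by their total counts only, this median moved to -0.95, and 2246 genes were called higher and 21430 lower, so that higher genes made up 9.49 % of calls in place of 49.2 %. All directions are therefore relative to the TMM scale, and gene groups whose median changed sign with the total counts are named as such. Without replicate 2 of stage 1, 8181 genes were called higher and 8902 lower, and without replicate 2 of stage 5 the numbers were 3931 and 3877. They were 4263 and 4123 without replicate 1 of stage 1, and 4599 and 4280 without replicate 3 of stage 5. Counts within gene groups depended on single libraries too, and the larger shifts are given with each group.

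Gene groups came from the deposited GO output and from lists in the study. The study found no significant difference between the lines for the raffinose family and MRP genes. All other groups hold genes that differed between the lines in these same libraries. Their counts are hence read beside those of the 2571 tested genes of the GO output, of which 723 (28.1 %) were called higher and 483 (18.8 %) lower, with a median log2 fold change of 0.20. The plot of gene lists shows every tested member of 14 of them.

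Genes with nutrient reservoir activity, the GO function of proteins that store nutrients, had the largest median change of the groups described here. Of 14 tested, 13 were called higher and none lower, with a median log2 fold change of 10.18. Together they took 0.0172, 0.0458 and 0.0192 % of gene counts in the stage 1 libraries and 17.4, 18.6 and 18.1 % in the stage 5 libraries. In a whole seed, more cells that express a gene and more RNA per cell cannot be told apart.

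Glyma03g32030 had 23.8, 50.5 and 29.3 scaled CPM in the stage 1 libraries and 72319, 71720 and 71372 in the stage 5 libraries. The stage 5 values lay within a narrow band, while the highest stage 1 value came from the library that stood apart. Its log2 fold change was 11.03 ± 0.84 (adjusted p = 3.2e-05). Glyma10g39150 had 55.5, 163 and 68.6 at stage 1 and 59726, 67392 and 56119 at stage 5, a log2 fold change of 9.32 ± 0.84. The pattern was alike, with the highest stage 1 value again in replicate 2. Glyma19g34780 had 0.249, 0.705 and 0.508 at stage 1 and 4989, 5298 and 2638 at stage 5, and its log2 fold change of 13.15 ± 0.62 was the largest of the group. Glyma10g04280, Glyma03g32020, Glyma13g18450 and Glyma10g03390 rose by 11.17, 11.14, 10.82 and 10.37 on the log2 scale.

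Not all members of the group behaved in this way. Glyma03g38630 rose by 1.43 and Glyma02g05010 by 2.53 on the log2 scale, from means of 9.60 and 0.879 to 25.99 and 5.17 scaled CPM. Glyma10g42611 was not called, with 1.35, 0.403 and 1.17 at stage 1 and 0.949, 0.522 and 0.989 at stage 5 (log2 fold change -0.27 ± 0.50, adjusted p = 0.69). Its stages overlapped. With replicate 2 of stage 1 left out, the group again had 13 genes called higher and none lower. With total counts only, 12 were called higher and none lower. Reads that align to more than 1 place were not counted, so values of near-identical storage genes are uncertain.

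Endopeptidase inhibitors, which block protein-cutting enzymes and include many seed defense proteins, moved in both directions. Of 12 tested, 10 were called higher and 2 lower, with a median log2 fold change of 5.43. Their summed share of gene counts went from between 0.0454 and 0.101 % at stage 1 to between 2.95 and 3.02 % at stage 5. Glyma08g45531 had 105, 426 and 65.5 scaled CPM at stage 1 and 27897, 28643 and 27551 at stage 5 (log2 fold change 7.14 ± 0.90, adjusted p = 0.00035). Glyma08g45480 had 17.7, 92.2 and 7.51 at stage 1 and 7043, 7076 and 5678 at stage 5, a log2 fold change of 7.41 ± 1.01. For both, replicate 2 gave the highest stage 1 value. Glyma11g36780 was near the detection limit at stage 1, with 0.107, 0.151 and 0.152, and had 287, 285 and 272 at stage 5. Glyma01g10900 rose by 10.43 on the log2 scale, with stage 5 values of 3692, 4835 and 6854.

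The inhibitor genes that fell had low levels at the late stage. Glyma16g33800 went from 85.1, 56.4 and 74.2 scaled CPM at stage 1 to 8.68, 6.33 and 3.56 at stage 5 (log2 fold change -3.54 ± 0.31). Glyma08g45580 had 8.03, 8.26 and 2.49 at stage 1 and 1.90, 1.70 and 1.45 at stage 5, with the stages apart and a log2 fold change of -1.90 ± 0.44. The call of Glyma08g45580 was lost without replicate 1 of stage 1 and without each stage 5 library, which left 1 inhibitor gene called lower.

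Peptidases, the enzymes that cut proteins, were spread over both directions. Among 84 tested genes of proteolysis, 15 were called higher and 23 lower, with a median log2 fold change of -0.18. The lower calls numbered 14 without replicate 1 of stage 1 or replicate 2 of stage 5, and 15 without replicate 3 of stage 5. With total counts only, 8 were called higher and 48 lower. Genes with cysteine-type peptidase activity included steep rises. Glyma08g12270 had 13.2, 28.4 and 15.8 scaled CPM at stage 1 and 37259, 40622 and 45650 at stage 5 (log2 fold change 11.07 ± 0.75). Glyma10g35100 rose by 5.28 and Glyma17g14680, a cysteine-type endopeptidase, by 3.95 on the log2 scale. A gene of serine-type endopeptidase activity, Glyma06g02500, was among the 10 genes of most counts at stage 1 and was not called. It had 5277, 1889 and 5919 at stage 1 and 5555, 4944 and 3168 at stage 5, and these ranges overlapped. Its log2 fold change of 0.07 ± 0.47 (adjusted p = 0.92) changed sign in several alternatives.

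**Figure D1:**
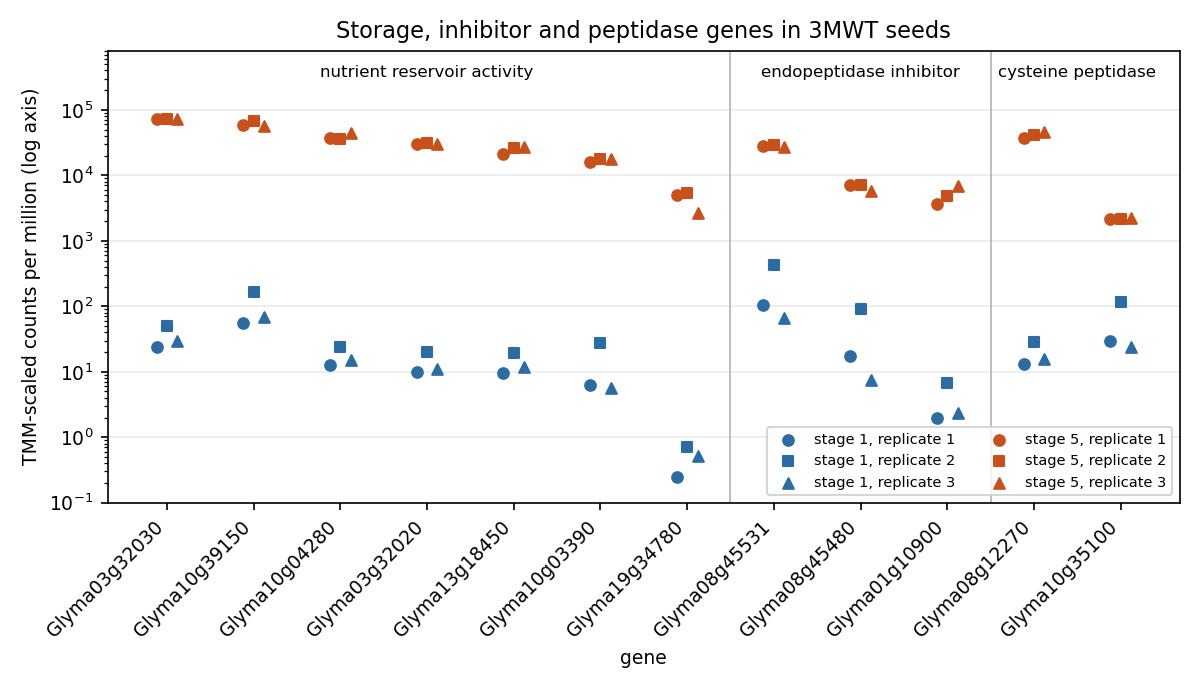
TMM-scaled CPM on a log axis of 12 genes of nutrient reservoir activity, endopeptidase inhibition and cysteine-type peptidase activity in each stage 1 (blue) and stage 5 (orange) library of 3MWT, with a symbol per replicate. Every stage 5 value lies above every stage 1 value of the same gene, from 23.8 to 50.5 against 71372 to 72319 for Glyma03g32030, and replicate 2 has the highest stage 1 value of each of the 12 genes.

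Some annotated and unannotated genes of high count rose by as much. Glyma02g01590, annotated only with binding, had 15.5, 88.8 and 9.95 scaled CPM at stage 1 and 16007, 16260 and 16647 at stage 5 (log2 fold change 8.75 ± 1.05). Glyma20g30460, which hydrolyzes O-glycosyl compounds by its GO term, had 0.498, 1.21 and 0.152 at stage 1 and 1792, 2070 and 2761 at stage 5 (log2 fold change 11.80 ± 0.64). Both had stages far apart. Glyma20g24530, an oxidoreductase of lipid metabolism, rose by 6.84 ± 1.117 on the log2 scale, with 5.79, 45.05 and 1.98 at stage 1 and 1805, 1938 and 2287 at stage 5. Of the genes without an annotation here, Glyma13g42310 rose by 10.72 to a stage 5 mean of 15599 and Glyma12g34160 rose by 11.23 to 2713.

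A pair of unannotated genes of high count at stage 1 fell. Glyma07g28940 had 9997, 2431 and 11566 scaled CPM at stage 1 and 1073, 883 and 677 at stage 5, a log2 fold change of -3.19 ± 0.59. The stages did not overlap, but replicate 2 of stage 1 lay far below the other stage 1 libraries. Glyma10g35871 had 3070, 1964 and 3486 at stage 1 and 748, 770 and 1072 at stage 5, a log2 fold change of -1.72 ± 0.31. Neither was called without replicate 1 or replicate 2 of stage 5, and Glyma07g28940 was not called without replicate 3 either. Both calls were also lost with replicate number as a block.

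Photosynthesis genes of the list rose almost without exception. Of 59 tested, 57 were called higher and none lower, with a median log2 fold change of 2.50. Their counts summed to 1329 ± 468 scaled CPM at stage 1 and 7842 ± 591 at stage 5 (SD, n = 3). With total counts only the median was 1.58 and 43 genes were called higher, and without replicate 2 of stage 1 all 59 were called higher. Replicate 2 was closer to stage 5 for these genes, with 0.262 % of its gene counts in the group against 0.138 and 0.124 % in the other stage 1 libraries. The study found photosynthesis genes to differ between the lines in late stages, nearly all of them lower in the mutant line. In 3mlpa the median of the group was 1.52. The part of this choice in the rise in 3MWT was not tested, here or for the light-harvesting and photosystem genes below.

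The light-harvesting proteins, which bind chlorophyll and pass light energy to the photosystems, were called higher for all 14 members, with a median of 2.55. Glyma05g25810, an LHCB1 gene of the antenna of photosystem II, had 129, 248 and 117 scaled CPM at stage 1 and 1424, 1356 and 1264 at stage 5 (log2 fold change 3.04 ± 0.33, adjusted p = 0.00016). The LHCB1 gene Glyma08g08770 had 188, 326 and 193 at stage 1 and 1575, 1405 and 1276 at stage 5, a log2 fold change of 2.59 ± 0.28. In both, the stages were well apart and replicate 2 was the highest stage 1 library. The LHCB1 gene Glyma16g28030 changed most within the group, by 4.96 ± 0.29, from a mean of 1.34 to 41.5.

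The 13 genes for subunits of photosystem I, which reduces ferredoxin, were all called higher, with a median of 2.44. Among them psaF, Glyma05g00620, had 56.1, 113 and 54.4 at stage 1 and 635, 547 and 513 at stage 5, and psaH, Glyma13g43370, rose by 3.27 ± 0.48. Of 17 genes for subunits of photosystem II, which splits water, 16 were called higher, with a median of 2.58. The oxygen-evolving enhancer psbQ, Glyma03g26740, had 34.1, 59.4 and 32.5 at stage 1 and 286, 240 and 226 at stage 5 (log2 fold change 2.58 ± 0.26), and PsbX, Glyma15g19100, rose by 3.41. The remaining gene, a PsbW gene (Glyma03g31580), had 12.6, 26.2 and 8.53 at stage 1 and 42.8, 30.1 and 32.6 at stage 5 and was not called (log2 fold change 1.16 ± 0.36, adjusted p = 0.028). CHLM, Glyma08g01060, which makes a chlorophyll precursor, had a log2 fold change of 1.53 ± 0.27 and was called with all libraries. It was not called with total counts only, nor without replicate 1 of stage 1, replicate 1 of stage 5 or replicate 2 of stage 5.

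Members of the list that bear names of chloroplast-encoded proteins varied much more between replicates. Glyma12g36132, listed as psbE, had 2.77, 5.75 and 2.64 scaled CPM at stage 1 and 20.2, 67.6 and 113 at stage 5 (log2 fold change 4.18 ± 0.61). Glyma13g15560, listed as psbA, had 3.56, 6.90 and 3.96 at stage 1 and 15.4, 28.9 and 44.9 at stage 5 (log2 fold change 2.64 ± 0.40). The stages did not overlap, yet replicate 3 of stage 5 was far above replicate 1 in both. In the same 3 stage 5 libraries, 0.675, 0.708 and 0.913 alignments per gene count were not unique, and the part of such alignments in these values was not tested. Glyma11g16391 and Glyma07g17331, also of the photosynthesis term, rose by 4.43 and 4.62.

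**Figure D2:**
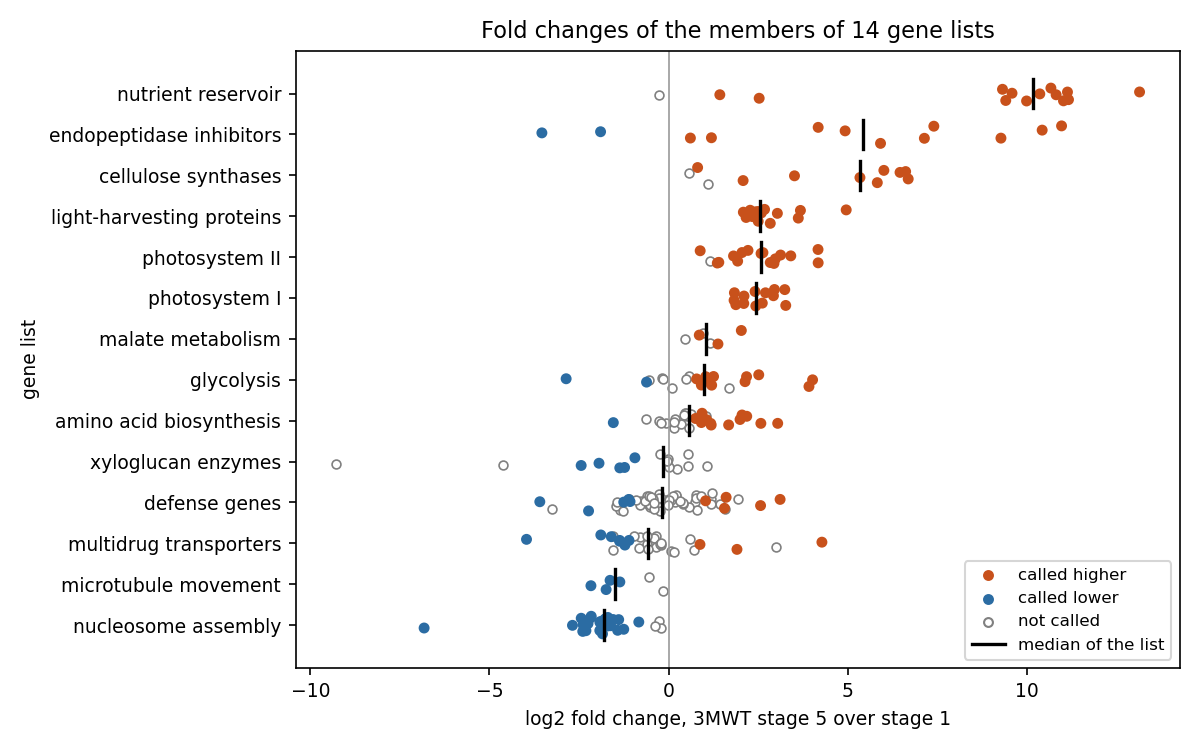
Log2 fold change of stage 5 over stage 1 in 3MWT for every tested member of 14 gene lists, with genes called higher in orange, lower in blue, those not called as open circles, and the median of a list as a black bar. Nutrient reservoir genes lie near a median of 10.18, light-harvesting and photosystem genes near 2.5, and nucleosome assembly genes to the left of 0 with a median of -1.81.

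Genes of nucleosome assembly, which pack newly made DNA, fell. Of 29 tested, 26 were called lower and none higher, with a median log2 fold change of -1.81 and a summed level of 4331 ± 313 scaled CPM at stage 1 against 1570 ± 331 at stage 5. Glyma20g36880 had 292, 317 and 321 at stage 1 and 86.5, 64.8 and 54.9 at stage 5 (log2 fold change -2.17 ± 0.20, adjusted p = 7.6e-05). Glyma15g04805 had 256, 261 and 302 at stage 1 and 62.8, 49.8 and 38.2 at stage 5, a log2 fold change of -2.44 ± 0.21. Replicate 2 of stage 1 lay between the other stage 1 libraries for both genes, and the stages were far apart. Glyma09g16392 fell most, by 6.82 on the log2 scale, from 12.7, 15.9 and 11.2 to 0.203, 0.065 and 0.066. Glyma02g15910 was not called, with 344, 301 and 352 at stage 1 and 316, 256 and 247 at stage 5 (log2 fold change -0.28 ± 0.17, adjusted p = 0.22).

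Microtubule-based movement, the work of motor proteins that act in dividing cells among others, had 4 of 6 genes called lower and none higher, with a median of -1.50. Glyma13g19580 had 56.9, 49.8 and 57.8 scaled CPM at stage 1 and 14.4, 12.1 and 10.2 at stage 5 (log2 fold change -2.17 ± 0.16). Across the alternatives apart from total counts, from 25 to 27 nucleosome assembly genes and 4 microtubule genes were called lower.

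Genes of translation, most of which encode parts of the protein-making machinery, depended on the scale. Of 152 tested, 50 were called higher and 2 lower with TMM, and the median log2 fold change of 0.43 became -0.45 with total counts only, when 4 were called higher and 49 lower. The higher calls also fell to 24 without replicate 2 of stage 5, to 28 without replicate 1 of stage 5 and to 29 without replicate 1 of stage 1. Their share of gene counts was 1.91, 2.43 and 2.04 % at stage 1 and 1.74, 1.58 and 1.40 % at stage 5. The elongation factor gene Glyma04g36250, a GTPase, had 17.6, 16.4 and 19.4 scaled CPM at stage 1 and 82.7, 73.1 and 65.7 at stage 5 (log2 fold change 2.05 ± 0.14). Protein folding genes were called higher in 10 and lower in 1 of 27, with a median of 0.48 that also turned with the total counts, to -0.39.

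Cellulose synthases, which spin cellulose into the cell wall, rose. Of 11 tested, 9 were called higher and none lower, with a median log2 fold change of 5.34. With total counts only, 6 were called higher, with a median of 4.45. The count was also 6 without replicate 1 of stage 1 or replicate 2 or 3 of stage 5. Without replicate 1 of stage 5 it was 7, and without replicate 2 or 3 of stage 1 it was 10. The fit over 30 libraries tested 13 genes, with a median of 3.52. The study listed genes that differed between the lines in early stages, most of them higher in the mutant line. The part of this choice in the rise was not tested. Glyma09g05630 had 3.45, 4.28 and 4.01 scaled CPM at stage 1 and 361, 355 and 316 at stage 5 (log2 fold change 6.46 ± 0.19, adjusted p = 1.8e-06). Glyma06g30860 had 6.90, 6.70 and 4.42 at stage 1 and 347, 331 and 350 at stage 5, and Glyma15g16900 rose by 6.69 ± 0.20. Replicates of these genes were close at both stages. The CESA gene Glyma12g36570 changed far less, from 154, 120 and 160 to 234, 250 and 279 (log2 fold change 0.81 ± 0.17, adjusted p = 0.0043), and with total counts only its value was -0.06 and was not called. Its call was also lost with replicate number as a block (adjusted p = 0.01675), without replicate 1 of stage 1 (0.01404) and without each stage 5 library in turn (0.01289, 0.02325 and 0.01832).

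Xyloglucan endotransglucosylases/hydrolases, which loosen walls by cutting and rejoining xyloglucan chains, had 5 of 16 genes called lower and none higher, with a median of -0.15. Glyma13g39710 had 60.8, 36.4 and 46.0 scaled CPM at stage 1 and 8.34, 7.57 and 10.6 at stage 5 (log2 fold change -2.44 ± 0.22). Pectinesterases remove methyl groups from pectin and make up the cell wall modification term. Of 10 tested, 3 were called higher (30 %) and 2 lower (20 %), near the 28.1 and 18.8 % of the GO output. Their median of 0.34 turned to -0.54 with total counts only, and 1 was called lower without replicate 1 or 3 of stage 1 or replicate 1 or 2 of stage 5. Glyma16g01650 had 35.7, 21.2 and 24.6 at stage 1 and 455, 496 and 288 at stage 5 (log2 fold change 3.93 ± 0.30), and Glyma17g04940 rose by 3.74. Another pectinesterase, Glyma15g35290, was counted at stage 1 alone, with 109, 53 and 68 reads there and 0 in every stage 5 library. Against a floor of 3 counts over the stage 5 libraries, it was at least 51.3-fold lower.

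Sugar genes moved separately. The sugar transporter SugT1, Glyma08g06420, had 116, 94.6 and 114 scaled CPM at stage 1 and 20.4, 19.9 and 19.98 at stage 5 (log2 fold change -2.43 ± 0.14, adjusted p = 8.7e-06). Of 7 tested genes of raffinose family oligosaccharide synthesis, raffinose synthase RS2, Glyma06g18890, was the gene called. It had 1.56, 4.99 and 1.32 at stage 1 and 12.3, 13.6 and 15.1 at stage 5 (log2 fold change 2.40 ± 0.44, adjusted p = 0.0023). The call of RS2 was lost with total counts only, without replicate 1 of stage 1 and without each stage 5 library. No gene of the group was called when any stage 5 library was left out, and with total counts only 0 were called higher and 2 lower. Stachyose synthase, Glyma19g40550, had 11.4, 8.41 and 8.07 at stage 1 and 9.96, 8.67 and 9.36 at stage 5, which overlapped, with a log2 fold change of 0.00 ± 0.17. With total counts only it was called lower, at -0.87. Galactinol synthase GalS1, Glyma19g41550, had 8.28, 3.17 and 4.52 at stage 1 and 10.6, 10.6 and 9.10 at stage 5 and was not called (log2 fold change 0.91 ± 0.32, adjusted p = 0.044).

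Glycolysis, the breakdown of sugars to pyruvate, had 11 of 20 genes called higher and 2 lower, with a median of 0.98 that was 0.11 with total counts only. Without replicate 1 of stage 5, 7 were called higher, and 1 was called lower without replicate 1 or 3 of stage 1 or replicate 1 or 2 of stage 5. Glyma12g04150 had 18.6, 33.4 and 18.8 scaled CPM at stage 1 and 387, 353 and 328 at stage 5 (log2 fold change 3.92 ± 0.27). The pyruvate kinase gene Glyma05g09310, of the last step of the pathway, had 202, 140 and 205 at stage 1 and 872, 793 and 813 at stage 5 (log2 fold change 2.18 ± 0.22). Glyma08g15280 fell by 2.86 on the log2 scale from a mean of 4.05 to 0.553. Malate metabolism had 3 of 6 genes called higher, or 5 without replicate 2 of stage 1, and none lower, and the malate dehydrogenase gene Glyma10g34150 rose by 2.03 ± 0.12. Among 160 genes of carbohydrate metabolism, 59 were called higher and 33 lower, with a median of 0.50 that became -0.38 with total counts only.

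Amino acid biosynthesis had 12 of 29 genes called higher and 1 lower, with a median of 0.56 that turned to -0.31 with total counts only. The lower call was lost without replicate 1 or 3 of stage 1 or replicate 1 or 2 of stage 5, and 2 were called lower without replicate 2 of stage 1. Both named members make amino acids of the glutamine family. Glyma05g03210 had 13.5, 44.2 and 14.5 scaled CPM at stage 1 and 201, 197 and 196 at stage 5 (log2 fold change 3.05 ± 0.44), and Glyma05g27290 rose by 2.58 ± 0.17.

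Lipid biosynthesis had 18 of 59 genes called higher (30.5 %) and 8 lower (13.6 %), near the 28.1 and 18.8 % of all tested genes of the GO output. Its median of 0.37 was -0.51 with total counts only. Without replicate 2 of stage 5, 4 were called lower. Genes annotated with 3-beta-hydroxy-delta5-steroid dehydrogenase activity went both ways. Glyma08g06630 had 416, 258 and 247 scaled CPM at stage 1 and 19.8, 16.04 and 5.67 at stage 5 (log2 fold change -4.47 ± 0.47), and Glyma17g37060 fell by 3.66 on the log2 scale. In contrast, Glyma11g07496 had 61.9, 34.0 and 62.02 at stage 1 and 558.6, 549 and 476 at stage 5 (log2 fold change 3.33 ± 0.27), and Glyma11g29460 rose by 3.20. Fatty acid biosynthesis had 4 of 14 genes called higher (28.6 %) and 3 lower (21.4 %), again near those of the GO output, with a median of -0.25. With total counts only, 0 were called higher and 7 lower. In this group Glyma11g01350, an acyltransferase, fell by 2.58 on the log2 scale and Glyma16g29790 rose by 2.12 (adjusted p = 0.0095). The call of Glyma16g29790 was lost with total counts only, with the filterByExpr filter on low counts, and with any library other than replicate 2 of stage 1 left out. In those same fits with a library left out the group had 2 genes called higher, and without replicate 2 or 3 of stage 5 it had 1 called lower.

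The MRP transporters, which move phytic acid into the vacuole in Arabidopsis and whose mutant alleles lower it in soybean seed, both rose in 3MWT. MRP-L, Glyma19g35230, had 51.9, 33.7 and 51.4 scaled CPM at stage 1 and 103, 121 and 145 at stage 5 (log2 fold change 1.43 ± 0.21, adjusted p = 0.00071), and it was not called with total counts only. MRP-N, Glyma03g32500, had 38.3, 23.4 and 42.4 at stage 1 and 118, 135 and 140 at stage 5 (log2 fold change 1.92 ± 0.22, adjusted p = 0.00023). For both genes replicate 2 was the lowest stage 1 library, and the stages did not overlap.

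Other transporters were called in both directions. Of 123 genes of transmembrane transport, 31 were called higher (25.2 %) and 19 lower (15.4 %), with a median of -0.06. These shares lay near the 28.1 and 18.8 % of all tested genes of the GO output. Without replicate 2 of stage 1 the counts were 35 and 34. Without replicate 2 of stage 5 they were 18 and 14, and with total counts only 15 and 62. Multidrug transporters had 3 of 29 called higher and 7 lower, or 4 and 13 without replicate 2 of stage 1. With replicate 1 of stage 1 left out they had 3 and 3, and with each stage 5 library left out 2 and 3. With total counts only they had 2 and 20. Glyma17g00550, of the major facilitator superfamily, had 0.924, 0.403 and 0.660 scaled CPM at stage 1 and 12.3, 14.7 and 13.1 at stage 5 (log2 fold change 4.28 ± 0.26). Glyma01g44930, of the same superfamily, had 12.4, 8.87 and 13.2 at stage 1 and 1.02, 0.652 and 0.527 at stage 5 (log2 fold change -3.96 ± 0.29). Oligopeptide transport had 5 of 18 called higher and 8 lower, with 4 lower without replicate 1 of stage 5 and 5 without replicate 2 or 3, and Glyma10g32750 went from 123, 62.1 and 152 to 24.3, 25.9 and 22.3.

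Genes that regulate transcription were called in both directions, 40 higher and 53 lower of 192, with a median of -0.19. Without replicate 1 or 2 of stage 5, 26 were called higher. With total counts only, 19 were called higher and 94 lower. Glyma13g22061, annotated as a transcription factor that binds DNA and forms dimers, had 0.427, 1.36 and 0.508 scaled CPM at stage 1 and 119, 135 and 148 at stage 5 (log2 fold change 7.49 ± 0.36). The zinc-binding factor Glyma15g18380 had 0.320, 2.17 and 0.558 at stage 1 and 43.4, 39.4 and 41.5 at stage 5, a log2 fold change of 5.42 ± 0.48. In the other direction, Glyma08g22190 had 11.2, 6.70 and 12.3 at stage 1 and 0.407, 0.457 and 0.132 at stage 5 (log2 fold change -4.89 ± 0.41).

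The study listed those members of some transcription factor families that differed between the lines, and the counts and medians here cover these alone. Of 12 WRKY genes tested, from a family known for roles in defense, 1 was called higher and none lower. Among them Glyma13g44730 had 0.320, 0.756 and 0.305 scaled CPM at stage 1 and 3.46, 2.61 and 5.80 at stage 5. In the CAMTA family, whose members bind calmodulin, 2 of 4 were called lower, Glyma05g31190 with a log2 fold change of -1.19 ± 0.15 and Glyma08g14370 with -1.05 ± 0.21. In the GRAS family, which includes gibberellin response regulators, 2 of 11 were called higher and 1 lower, and Glyma08g43780 rose by 2.26 ± 0.14. In the TCP family, growth regulators, 2 of 7 were called higher, among them Glyma13g34690 with 1.27 ± 0.12. Without replicate 2 of stage 1, the calls in the WRKY family were 4 higher and 2 lower, and those in the ZF-HD family, 2 higher of 5 with all libraries, were 5 higher. With any other library left out, ZF-HD had 1 called higher. Glyma08g14370 was not called without replicate 1 or 3 of stage 1 or replicate 1 or 2 of stage 5, and Glyma13g34690 was not called with total counts only. GRAS had 4 called higher without replicate 2 of stage 1 and 1 without replicate 1 of stage 1 or replicate 1 or 2 of stage 5. The medians of these families changed sign with total counts only, from 0.13 to -0.77 in WRKY, from 0.46 to -0.43 in GRAS, from 0.23 to -0.67 in TCP and from 0.82 to -0.12 in ZF-HD, apart from CAMTA, which went from -0.65 to -1.53.

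Calls among defense genes depended on the scale and on single libraries. Of 57 defense genes in the list of the study, 5 were called higher and 5 lower, and of 27 innate immune genes 1 was called higher and 2 lower. With total counts only, 3 defense genes were called higher and 26 lower, and 12 innate immune genes were called lower and none higher. The median of the innate immune genes went from 0.18 to -0.70. With replicate 1 of stage 1 or any stage 5 library left out, 1 defense gene and no innate immune gene was called lower. Without replicate 2 of stage 1, 10 defense genes and 5 innate immune genes were called higher. The BCL-2-associated athanogene 1 genes Glyma16g32280 and Glyma16g32290 rose, the first from 3.88, 4.69 and 4.67 scaled CPM to 35.6, 39.7 and 38.9 (log2 fold change 3.12 ± 0.13) and the second by 2.57 ± 0.16. Athanogenes bind chaperones and limit cell death in animals. Glyma18g51715, a cysteine proteinase, fell by 2.23 on the log2 scale. The disease resistance genes ADR1-L1 were not called, with log2 fold changes of -0.76 ± 0.23 for Glyma14g08700 (adjusted p = 0.024) and -0.40 ± 0.15 for Glyma17g36420 (adjusted p = 0.057).

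Among 84 genes of response to stress, 19 were called higher and 8 lower, with a median of 0.26 that turned to -0.63 with total counts only. Without replicate 2 of stage 1 there were 29 higher calls, and lower calls numbered 3, 4 or 5 with replicate 1 of stage 1 or any stage 5 library left out. Glyma05g33200, of the defense response term, had 2.42, 13.8 and 2.59 scaled CPM at stage 1 and 4756, 4564 and 4957 at stage 5 (log2 fold change 9.58 ± 0.87). Glyma02g03680, of the same term, had 205, 148 and 138 at stage 1 and 31.2, 16.7 and 4.48 at stage 5 (log2 fold change -3.22 ± 0.57), and was not called without replicate 2 of stage 5. Oxidation reduction genes were called higher in 109 and lower in 42 of 295, with a median of 0.56 that also turned with total counts only, to -0.31. Their lower calls numbered 26 without replicate 1 of stage 1 or replicate 2 of stage 5. UBQ10, Glyma07g32020, the ubiquitin gene that the study used as its qPCR reference, had 102, 86.5 and 121 at stage 1 and 179, 173 and 143 at stage 5. These ranges were apart, and the gene missed the threshold (log2 fold change 0.68 ± 0.17, adjusted p = 0.012). UBQ10 was called higher by the DESeq2 Wald test (adjusted p = 0.00074), in the edgeR fits over 15 and 30 libraries (0.00033 and 0.00155) and without replicate 2 or 3 of stage 1 (0.00558 and 0.00651). Its sign turned with total counts only, to -0.19.

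Some called genes were counted at a single end of the span. There were 242 with 0 counts in every stage 5 library and 80 with 0 counts in every stage 1 library. Among the annotated genes of this kind, the oxidoreductase gene Glyma19g38380 had 182, 86 and 101 counts at stage 1, at least 82.2-fold more than the floor of 3 counts over the stage 5 libraries. The glycosyltransferase gene Glyma15g37520 had 34, 72 and 81 counts at stage 5, at least 93.2-fold more than the same floor over the stage 1 libraries. These bounds cover counting error only.

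The stages in between, which the comparison of the ends does not use, show how the difference was built up. For 4344 genes called at least 2-fold higher and 5235 at least 2-fold lower, the share of the log2 change reached in each library was computed, with 0 % at the stage 1 mean and 100 % at the stage 5 mean. The median share over the higher genes was from 33.9 to 48.1 % in the stage 2 libraries, from 69.5 to 81.0 % at stage 3 and from 90.3 to 95.0 % at stage 4. Over the lower genes it was from 21.8 to 29.5 %, from 47.6 to 63.7 % and from 76.6 to 82.5 %. Libraries of successive stages did not overlap in either direction, and the higher genes were ahead of the lower genes in every library of stages 2 to 4. These shares, and the steps below, were computed on the TMM scale alone, and other scales were not tested for them.

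**Figure D3:**
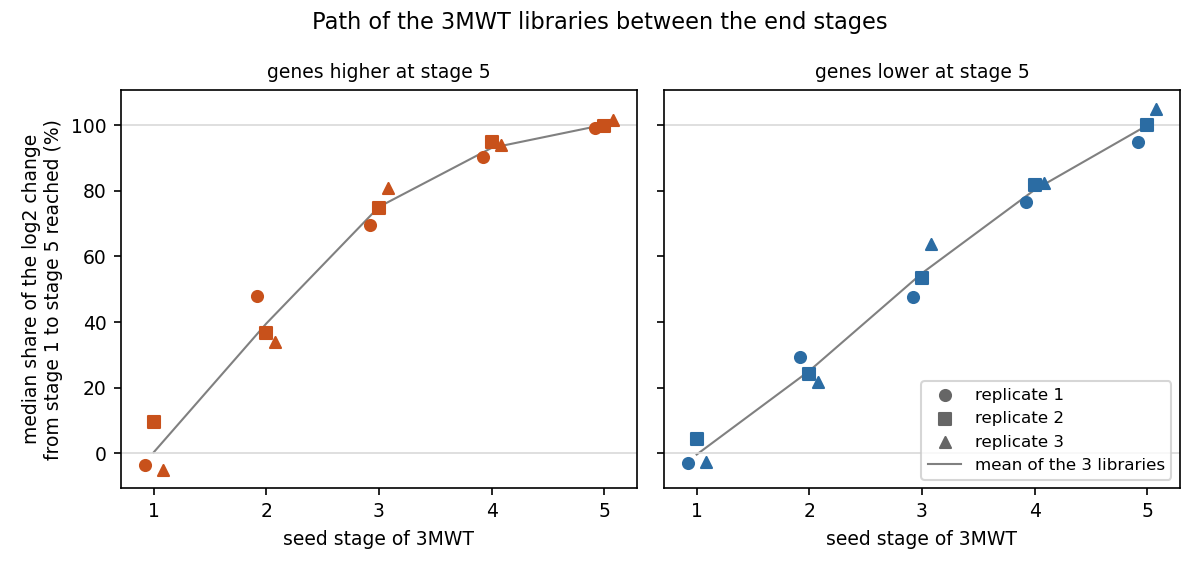
Median share, in percent, of the log2 change from stage 1 to stage 5 that each 3MWT library had reached, for genes higher (left) and lower (right) at stage 5, with a symbol per replicate and a line through the means of the 3 libraries. Higher genes reached 69.5 to 81.0 % at stage 3 and lower genes 47.6 to 63.7 %, and replicate 2 of stage 1 lies above the other stage 1 libraries at 9.42 and 4.51 %.

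Of the higher genes, 49.7 % had their largest step between stages 1 and 2, 32.4 % between stages 2 and 3, 14.5 % between stages 3 and 4 and 3.34 % between stages 4 and 5. For the lower genes the shares were 35.0, 26.8, 22.5 and 15.7 %. With stage 1 taken from replicates 1 and 3, they were 52.5, 30.8, 13.7 and 3.02 % for the higher genes and 38.6, 25.5, 21.1 and 14.7 % for the lower genes. The mean moved in the same direction at every step for 54.5 % of higher and 49.2 % of lower genes.

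Gene groups took different paths. The median log2 level of the nutrient reservoir genes was 3.29 above stage 1 at stage 2, and over the next stages it reached 8.42, 9.76 and then 10.49. Glyma03g32030 had stage means of 1306, 22599 and 45427 scaled CPM at stages 2, 3 and 4. The light-harvesting genes were already 1.78 above stage 1 at stage 2 and stood at 2.52, 2.55 and 2.63 from stage 3 on. The cellulose synthases came later, at 0.91, 2.54, 4.78 and 5.35, and Glyma09g05630 had stage means of 9.06, 29.9 and 188 at stages 2, 3 and 4. Nucleosome assembly genes stood at -0.10 at stage 2 and then at -0.63, -1.27 and -1.85.

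Single genes departed from such steady paths. SugT1, Glyma08g06420, had means of 28.3, 34.7 and 25.0 scaled CPM at stages 2, 3 and 4, against 108 at stage 1, so that most of its drop lay before stage 2. The steroid dehydrogenase gene Glyma08g06630 had 189, 227 and 122 in the middle stages and 13.8 at stage 5, so that most of its drop came last. MRP-L, Glyma19g35230, had 32.4, 47.9 and 93.4, below its stage 1 mean of 45.7 at stage 2 and above it from stage 3. Glyma16g32280 had 4.35, 8.44 and 22.8, close to its stage 1 mean of 4.41 at stage 2.

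**Figure D4:**
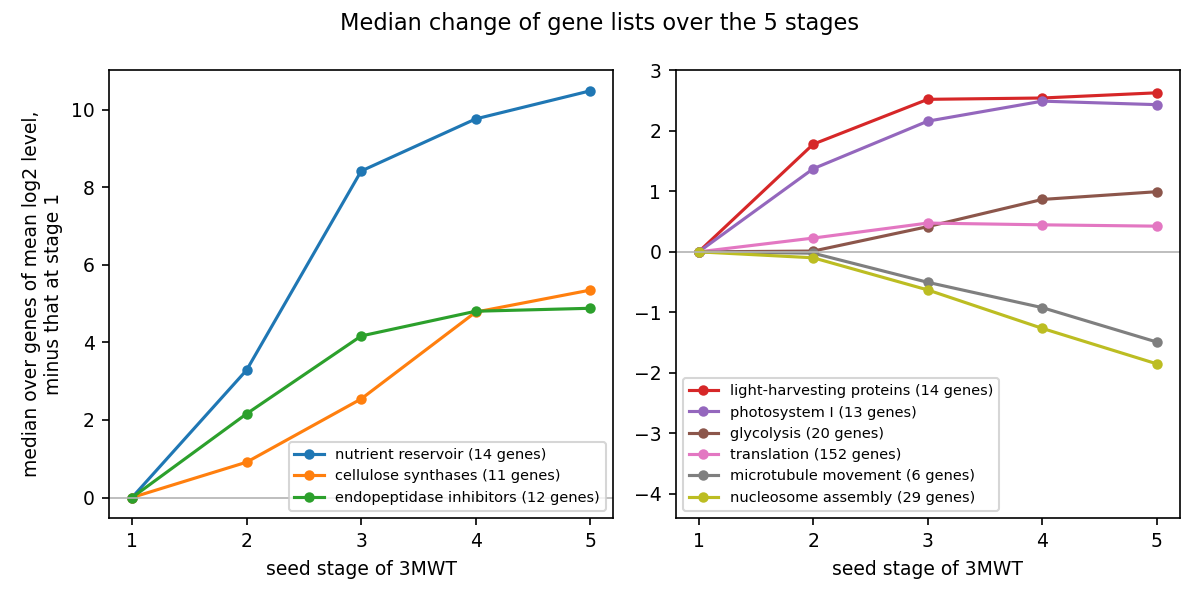
Median over the tested genes of a list of the mean log2 level at each stage minus that at stage 1 in 3MWT, with the steep lists on the left and the flatter ones on the right on another scale. Nutrient reservoir genes pass 8.42 at stage 3, light-harvesting genes level off near 2.5 from stage 3, cellulose synthases go from 2.54 at stage 3 to 4.78 at stage 4, and nucleosome assembly genes decline to -1.85, while the positive values of translation turn with total counts only.

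Stages 2 to 4 also entered a test over all stages. A test over the 5 stages of 3MWT called 19307 of 43381 genes (44.5 %). Of these, 6436 were not called between stages 1 and 5. The stage mean furthest up was at stages 2 to 4 for 3219 of them and that furthest down for 3023. For 895 neither lay there. Both tests share the stage 1 and stage 5 libraries.

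Libraries of 3mlpa did not enter the main fit, but they did enter the scaling of CPM and the choice of gene lists. In 3mlpa the same comparison called 8214 of 42222 genes higher (19.5 %) and 8301 lower (19.7 %). Of 13001 genes called in 3MWT and tested in both lines, 10005 were also called in 3mlpa, which is 77.0 % of the genes of 3MWT and 61.1 % of those of 3mlpa, and 19 of them moved in opposite directions. The sign of the change was the same for 97.5 % of the genes called in 3MWT. The nutrient reservoir group had 12 of 14 genes called higher in 3mlpa, photosynthesis 41 of 60, and cellulose synthases 10 of 13 with 1 called lower, while nucleosome assembly had 26 of 29 called lower and 1 called higher.

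Whether a change differed between the lines was tested directly over the 12 libraries of stages 1 and 5, as the change in 3MWT minus that in 3mlpa. Of 43810 genes, 18 were called (0.0411 %), 14 with a positive and 4 with a negative difference, and 7343 had an unadjusted p under 0.05. Glyma12g05241, a regulator of transcription, had 93.5, 81.6 and 90.6 scaled CPM at stage 1 and 54.2, 59.3 and 46.1 at stage 5 in 3MWT (log2 fold change -0.73), a call within 3MWT that was kept without replicate 2 of stage 1 but lost with any other library left out. In 3mlpa its mean went from 76.1 to 11.2 (log2 fold change -2.79), and the difference was 2.09 ± 0.18 (adjusted p = 0.0027). Glyma07g01660, an oxygenase, rose by 3.70 in 3MWT, from 0.320, 1.26 and 0.305 to 7.52, 8.09 and 8.24, while its mean in 3mlpa went from 7.53 to 1.97. Glyma14g39783, a helicase, fell by 1.53 on the log2 scale in 3MWT and had a log2 fold change of 0.39 in 3mlpa (difference -1.89 ± 0.20). The number called depended on single libraries: it was 357 without replicate 2 of 3MWT stage 1, and without replicate 2 of 3mlpa stage 5 edgeR called 0, with 6700 genes at an unadjusted p under 0.05.

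The genes listed as psbE and psbA, which rose in 3MWT, had log2 fold changes of -1.28 ± 0.44 (Glyma12g36132) and -0.03 ± 0.43 (Glyma13g15560) in 3mlpa. The differences between the lines, 5.49 ± 0.96 and 2.70 ± 0.64, were not called (adjusted p = 0.020 and 0.056). Replicates of stage 1 in 3MWT had from 1.05 to 2.76 alignments per gene count that were not unique, against from 0.209 to 0.392 in 3mlpa, and the part of these alignments in differences between the lines was not tested.

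**Figure D5:**
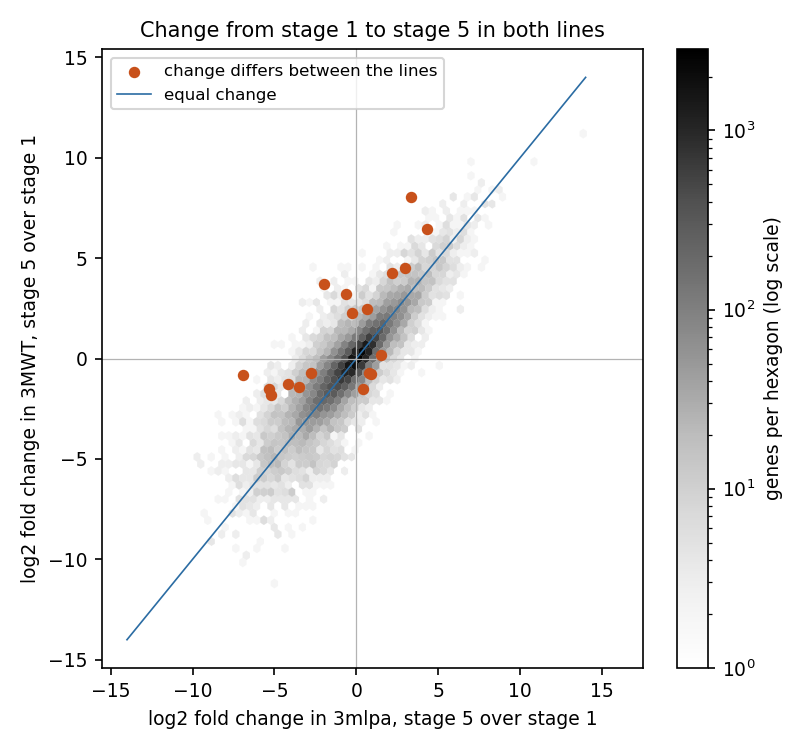
Log2 fold change of stage 5 over stage 1 in 3MWT (vertical axis) against that in 3mlpa (horizontal axis), with the number of genes per hexagon in grey on a log scale, the 18 genes whose change differed between the lines in orange, and a blue line of equal change. The cloud follows the line, 97.5 % of the genes called in 3MWT have the same sign in 3mlpa, and the orange points lie away from it.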

How the data were processed

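Whole seeds of 3MWT were compared between stage 5 and stage 1, with 3 libraries each. The authors extracted RNA with the RNeasy kit, made TruSeq libraries, sequenced single-end reads, mapped them to the Williams 82 genome (assembly 1.0, annotation v1.1) with TopHat 2.0.8 and counted unique alignments per gene with HTSeq in Union mode. The deposited values are raw counts per gene, not normalized, with summary lines that were left out here. The authors used DESeq 1.12.1 for their own comparisons. The deposited tables of normalized abundances and of the authors' fold changes and p-values between the lines were not used, and from the deposited GO output only the genes under each term were taken.

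The fits used TMM and the quasi-likelihood test of edgeR 4.0.16, run in R 4.3.3. A gene entered a fit with 10 or more counts over its libraries and was called at an adjusted p (Benjamini-Hochberg) of up to 0.01. As standard error served the size of the log2 fold change divided by the square root of F. The fit was tested on simulated data. In the simulation a small part of the genes changed, evenly in both directions, so it could not test the assumption of TMM for these seeds. At 14150244 to 22145578 gene counts per library, 6821 genes had no count in the 6 libraries. P-values measure the spread between pools of seeds within a stage. Floors of 3 counts cover counting error only.

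Members and gene lists were chosen with earlier results of these data known. Named genes were those the study names for sugar, MRP, CESA, UBQ10 and ADR1-L1 genes, up to 3 called members of a list per direction with stages apart, the 10 genes of most counts per stage, the 10 largest changes per direction, and up to 5 differences between the lines. Unannotated genes were limited to 2 per direction, and not every gene under the rule is printed. Glyma10g42611, Glyma03g38630, Glyma02g05010, Glyma05g25810, Glyma03g31580, Glyma13g15560, Glyma08g08770, Glyma05g00620, Glyma03g26740, Glyma20g36880, Glyma02g15910, Glyma05g09310, Glyma08g45480, Glyma06g30860, Glyma19g38380 and Glyma15g37520 were added after their values were seen. None of the gene identifiers matched the available RefSeq table, so annotations are those of the study and its GO output, markers of seed tissues could not be checked, and sequences were not analysed here.

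Alternatives were DESeq2 size factors and total counts in place of TMM, the DESeq2 1.42.0 Wald test, no filter and filterByExpr, fits over 15 and 30 libraries, a replicate block, a 2-fold minimum and each library left out.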

Additional observations from a re-analysis of the deposited data

Results flagged for a closer look

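The change from stage 1 to stage 5 differed between 3MWT and 3mlpa for 18 genes by the test of the difference itself. Named among them were Glyma12g05241 with a difference of 2.09 on the log2 scale, Glyma07g01660 with 5.68 and Glyma14g39783 with -1.89. Mean levels of Glyma07g01660 in 3MWT were 0.628, 1.53, 9.55, 11.7 and 7.95 scaled CPM from stage 1 to stage 5, so that its highest stage mean was that of stage 4. Those of Glyma12g05241 were 88.6, 48.1, 43.0, 44.4 and 53.2, with most of the drop before stage 2.

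Alignments that were not unique, which enter no gene count, numbered 1.94 ± 0.858 per gene count at stage 1 of 3MWT (SD, n = 3) and 0.765 ± 0.129 at stage 5, against 0.314 ± 0.0944 and 0.369 ± 0.0206 at these stages of 3mlpa. The ranges of the lines did not overlap at stage 1 or at stage 5, and the genes that these alignments come from cannot be read from the counts.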

How the results depend on the processing

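The counts of genes higher and lower at stage 5 in 3MWT stayed within 1.5 times of 6411 and 6632 with DESeq2 size factors, the DESeq2 Wald test (7407 and 7245), no filter, filterByExpr, fits over 15 (8977 and 9176) and 30 libraries, and a 2-fold minimum. With total counts only they were 2246 and 21430, and in 3mlpa 2566 and 24254. Leaving out each library gave from 3931 to 8181 higher and from 3877 to 8902 lower. In 3mlpa, leaving out each library gave from 6011 to 8625 higher and from 5602 to 8781 lower. Genes called over the 5 stages but not between the ends ranged from 4685 to 9586 with a library left out.

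Replicate numbers did not pair the libraries: deviations from the stage means correlated at -0.01, -0.05 and -0.20 for equal numbers. With the replicate block, 5194 genes were higher and 5425 lower, 11 differed between the lines, and 8101 were called over the stages but not between the ends.

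The 18 genes that differed between the lines became 31 with total counts only, 106 with no filter, and from 0 to 357 with a library left out (153 without 3mlpa stage 1 replicate 3 and 107 without 3mlpa stage 5 replicate 3, with 357 and 0 without 3MWT stage 1 replicate 2 and 3mlpa stage 5 replicate 2, and from 1 to 42 without each of the other 8 libraries). The share of the 10 leading genes at stage 5 was 16.6 % without the 3 highest, from 24.1 to 24.9 % with a library left out, and from 3.36 to 4.99 % at stage 1.

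Of 98 genes followed through the alternatives, 89 were called and 76 of these were called under every alternative. Many of the 98 were chosen for large called changes with stages apart in these libraries, so this share does not carry over to all genes. Some genes changed sign. With total counts only, Glyma06g02500 went from 0.07 to -0.78, Glyma12g36570 from 0.81, which was called, to -0.0565, Glyma19g40550 from 0.00 to -0.87 and Glyma07g32020 from 0.68 to -0.19. Glyma19g40550 was at -0.0024 with filterByExpr. With a library left out, Glyma19g40550 ranged from -0.0911 to 0.211, Glyma06g02500 from -0.320 to 0.375 and Glyma10g42611 from -0.647 to 0.0905. The cause of these shifts was not tested. Genes of few counts are limited by depth, and 6821 genes without a count allow no statement.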
